A study of Mus musculus with 12 samples.

Results

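MicroRNA genes that lie next to binding sites of 2 histone demethylases, Jmjd2a (Kdm4a) and Jmjd2c (Kdm4c), were described in mouse leukaemic cells. A gene was included when its name, beginning with Mir and a digit or with Mirlet, was given to a called binding region (a peak) as the nearest start site, or was listed in the authors' deposited table of start sites bound by both proteins. This gave 191 microRNA genes of 11874 distinct gene names in the deposited tables. Of these, 97 lay within 1000 bp of a peak of at least 1 protein and 94 were named only by peaks farther away. The first group held 51 genes with both proteins, 9 with Jmjd2a only and 37 with Jmjd2c only. All but 2 of the 191 are hairpin genes, and the exceptions, Mir22hg and Mirlet7bhg, are long host transcripts.

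The cells were granulocyte-macrophage progenitors transformed with the MLL-AF9 fusion (L-GMP), on a C57BL/6 background, with the genotype Jmjd2a/b/cf/f;Rosa26::CreERT2. They were lines grown out of leukaemic mice, and how many lines or mice the libraries represent is not stated in the labels. In every library, controls included, the Jmjd2a, Jmjd2b and Jmjd2c alleles are therefore floxed and the Cre recombinase, expressed from Rosa26, is activated by tamoxifen. Cells were grown in RPMI with 20% serum and 10 ng/ml interleukin-3, either untreated or with 500 nM 4-hydroxytamoxifen (OHT) for 96 h. Of the 12 immunoprecipitated libraries, 1 per condition was made with an antibody to Jmjd2a, 1 with an antibody to Jmjd2c, and 2 each with antibodies to H3K9me3 and H3K36me3. The tables analysed hold 8977 Jmjd2a peaks, 10521 Jmjd2c peaks and 6940 start-site windows with both proteins. They carry no height, score, read count or value per library. Sequencing depth is therefore unknown, OHT was not compared with control, the labelled cell type could not be checked against markers, and each value below is a position, a distance, a width or a count without replicates.

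Jmjd2a and Jmjd2c take methyl groups off lysine 9 and lysine 36 of histone H3, marks of silent chromatin and of transcribed gene bodies respectively. A microRNA is cut from a hairpin inside a longer primary transcript, and the hairpin can sit far downstream of the promoter, often in an intron of a protein-coding host gene. Its mature strand then finds target mRNAs through a short seed near its 5′ end. In the annotation used by the authors, the start of a microRNA gene is the first base of the hairpin: this held for all 156 members whose hairpin sequence was matched. A peak at such a start is a peak at the hairpin, which need not be the promoter of the primary transcript.

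The members whose mature sequences follow carry most of the results below. They are RefSeq sequences placed on GRCm38.p6, whose primary assembly is the same as mm10, and the capitals mark the seed, bases 2 to 8. The first 4 belong to microRNAs whose hairpins had both proteins or Jmjd2c nearby, and each pair shares 1 seed.
miR-148a-3p: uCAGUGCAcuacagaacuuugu
miR-152-3p: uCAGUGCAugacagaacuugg
miR-193a-3p: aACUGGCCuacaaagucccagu
miR-193b-3p: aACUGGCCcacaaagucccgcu

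The next pair is encoded by 1 locus that had a Jmjd2a peak and no Jmjd2c peak within 1000 bp.
miR-132-3p: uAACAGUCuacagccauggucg
miR-212-3p: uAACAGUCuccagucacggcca

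The following 4 come from hairpins with Jmjd2c nearby and, in the last, with both proteins. They are shown because each is a textbook regulator of growth or differentiation with no start of a gene other than a microRNA gene within 1000 bp. Here and below, another or other start means the start of such a gene; starts of microRNA genes and of their transcripts named as microRNA hosts were left out, and hairpins of 1 cluster can lie much closer to each other.
miR-17-5p: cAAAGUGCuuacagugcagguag
miR-196b-5p: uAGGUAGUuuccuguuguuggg
let-7i-5p: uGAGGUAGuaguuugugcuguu
miR-203-3p: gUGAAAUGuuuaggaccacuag

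The last 6 come from hairpins that peaks named only from beyond 1000 bp. Let-7a shares its seed with let-7i above, and the miR-181 and miR-30 pairs each share theirs.
let-7a-5p: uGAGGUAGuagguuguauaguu
miR-181a-5p: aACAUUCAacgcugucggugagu
miR-181c-5p: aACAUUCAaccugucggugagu
miR-30a-5p: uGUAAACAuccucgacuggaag
miR-30c-5p: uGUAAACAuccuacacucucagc
miR-146a-5p: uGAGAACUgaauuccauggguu

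With chromosome 18 left out, mature sequences were found for 162 of the members, 255 in all with 242 distinct seeds. Among these sequences 12 seeds occurred in more than 1 member, and these covered 23 genes. Members or strands without a sequence, Mir30d among them, could not be compared, so further seeds may be shared. Members with a shared seed fell in the same group for the pairs Mir193a and Mir193b, Mir762 and Mir7648, and Mir7093 and Mir8104 (both proteins), and for Mir132 and Mir212 (Jmjd2a only). The same held beyond 1000 bp for Mir181a-1, Mir181a-2 and Mir181c and for Mir30a and Mir30c-2. They fell in different groups for Mir148a and Mir152, Mirlet7a-1 and Mirlet7i, Mir423 and Mir6921, Mir2861 and Mir3091, and Mir7012 and Mir8119. Mir132 and Mir212 are cut from neighbouring hairpins under 1 peak, so they are not separate observations.

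The occupied hairpins were a small part of all microRNA genes. A Jmjd2a peak lay within 1000 bp of 60 members. Measured from every peak to every microRNA gene of RefSeq, 67 of 1228 genes (5.46%) had a Jmjd2a peak within 1000 bp, against 24% of 27025 other genes. A Jmjd2c peak lay within 1000 bp of 88 members. The same measurement gave 110 of 1228 microRNA genes (8.96%), against 33.3% of other genes. Both proteins were near 51 members, or 55 of 1228 microRNA genes (4.48%), against 21.2% of other genes. The measures are unlike, since microRNA genes were measured at the hairpin and other genes at any of their annotated starts. On these measures the share of microRNA genes was below that of other genes for each protein and for both. These are counts without a test, and genes at 1 locus share peaks.

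**Figure D1:**
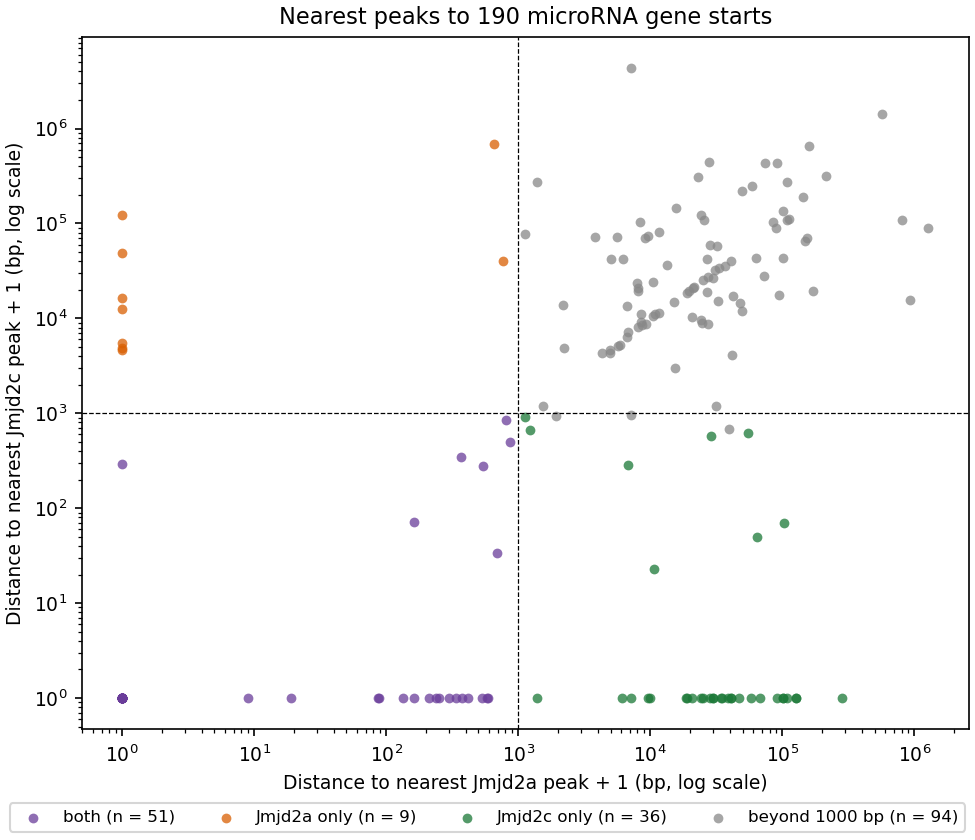
Distance from each of 190 microRNA gene starts to the nearest Jmjd2a peak (horizontal) and the nearest Jmjd2c peak (vertical), each in bp plus 1 on a log scale; points are genes and the dashed lines mark 1000 bp. The 51 genes with both proteins crowd in the lower left, where several points coincide at a distance of 0, while Jmjd2c-only genes line the lower edge at Jmjd2a distances up to 284281 bp. Mir466f-2 is absent because no start could be placed for it.

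Jmjd2c covered the hairpin start itself in 72 members and Jmjd2a in 36. Among the 51 genes with both proteins, the nearest Jmjd2c peak covered the start in 44 and the nearest Jmjd2a peak in 29. The nearest Jmjd2c peak was the wider one in 45 of the 51. Its width had a median of 1477 bp (range 682 to 3709 bp), and that of the nearest Jmjd2a peak a median of 776 bp (range 252 to 1825 bp). Within these 51 genes the Jmjd2a peak therefore lay to 1 side of the start in 22, as the map of peak spans shows.

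**Figure D2:**
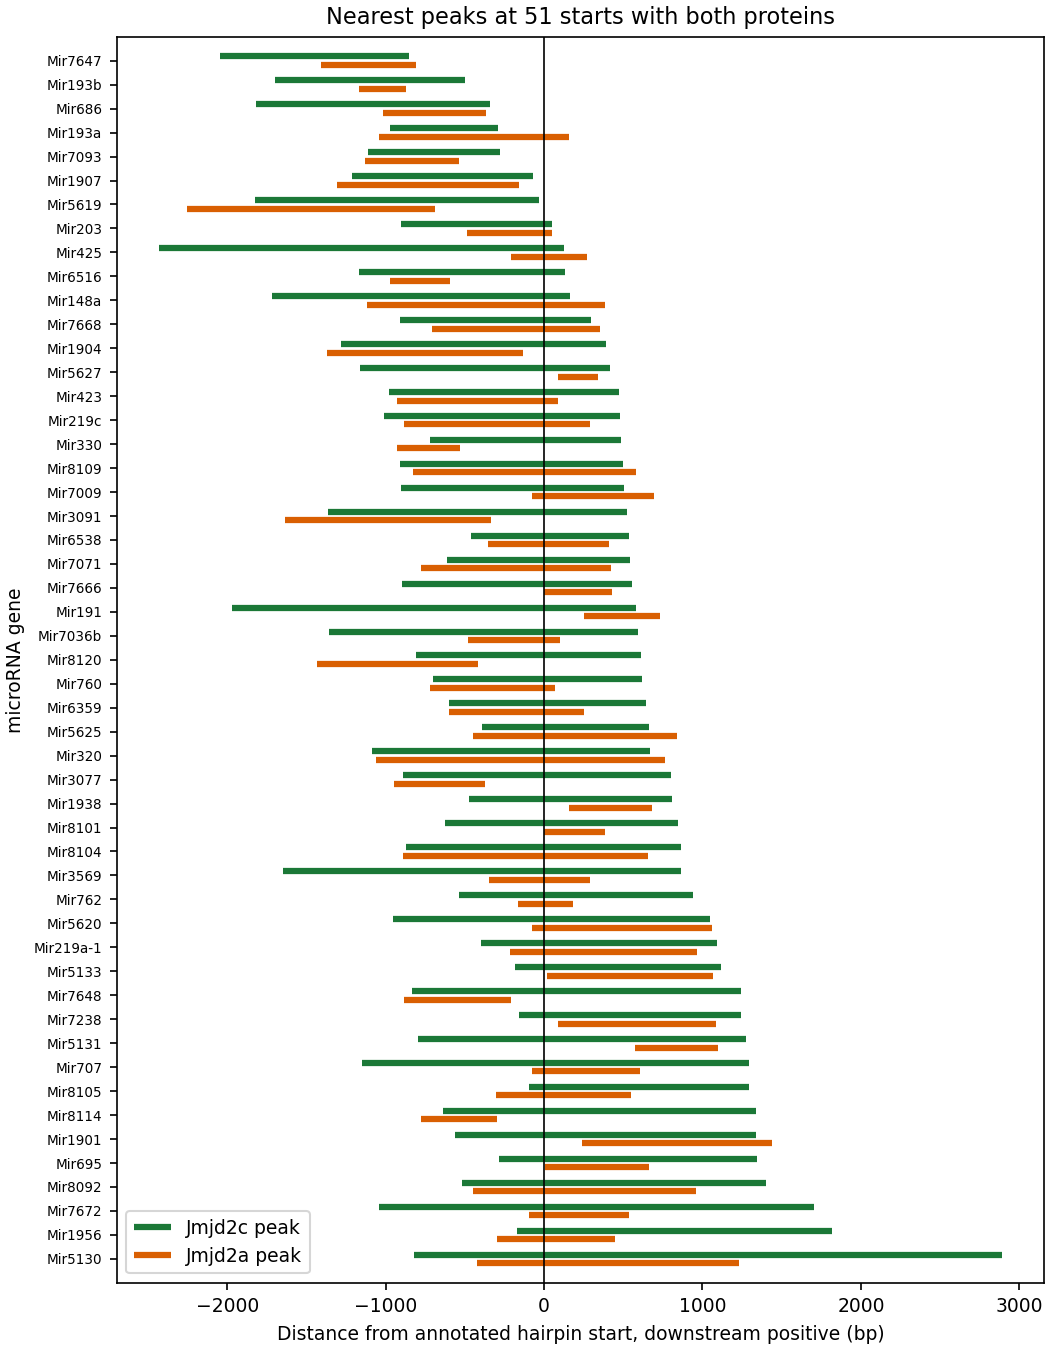
Span of the nearest Jmjd2a peak (orange) and Jmjd2c peak (green) around the hairpin start of the 51 genes with both proteins, in bp with downstream positive, ordered by the downstream edge of the Jmjd2c peak. Most Jmjd2c bars cross the start at 0, whereas many Jmjd2a bars stop short of it on 1 side; the 7 genes at the top have a Jmjd2c peak wholly upstream.

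Most of the genes with both proteins lay at the start of another gene. In 39 of the 51 genes with both proteins (76.5%) another gene's start lay within 1000 bp of the hairpin start. These 39 are Mir191, Mir219a-1, Mir219c, Mir320, Mir330, Mir423, Mir695, Mir707, Mir762, Mir1907, Mir1938, Mir1956, Mir3077, Mir3091, Mir3569, Mir5130, Mir5131, Mir5133, Mir5619, Mir5620, Mir5625, Mir5627, Mir6359, Mir6516, Mir6538, Mir7009, Mir7036b, Mir7071, Mir7238, Mir7648, Mir7666, Mir7668, Mir7672, Mir8092, Mir8101, Mir8104, Mir8105, Mir8109 and Mir8114. The other 12 are Mir148a, Mir193a, Mir193b, Mir203, Mir425, Mir686, Mir760, Mir1901, Mir1904, Mir7093, Mir7647 and Mir8120. Another start lay within 1000 bp of 26 of 36 Jmjd2c-only genes (72.2%), but of 1 of 9 Jmjd2a-only genes, Mir1199, which lies 87 bp from the start of Misp3. Among the 94 genes beyond 1000 bp it was 2 (2.13%), Mir135a-1 and Mir3089. The other starts were those of RefSeq, those the authors listed as bound by both proteins, and those that peaks themselves named. A gene near a peak could gain a match through that peak, so the difference between these groups is partly built in.

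Across the 96 genes near a peak whose start could be placed, another start was this close in 66 (68.8%). It was on the same strand as the hairpin in 48 of the 66, with the hairpin downstream of it in 35. The median distance between the starts was 244 bp, and in 21 genes it was at most 100 bp. Mir8114 lies 3 bp from the start of Glul, which encodes glutamine synthetase, and Mir8092 lies 2 bp from the start of Zfp518a. Mir8101 lies 22 bp from the start of the deacetylase gene Hdac5, and Mir5130 lies 5 bp from that of Kctd12. For such genes, a peak at the hairpin cannot be told apart from a peak at the neighbouring gene's start.

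Over all of RefSeq, hairpins with another start nearby also had peaks more often, and the same limit may apply. Of 131 microRNA genes with another start within 1000 bp, 33.6% had a Jmjd2a peak within 1000 bp (exact 95% binomial interval 25.6 to 42.4%), 55.7% a Jmjd2c peak (46.8 to 64.4%) and 32.1% both. Of the 1097 without one, 2.1% had a Jmjd2a peak (1.33 to 3.13%), 3.37% a Jmjd2c peak (2.39 to 4.62%) and 1.19% both. These intervals cover counting error only. Protein-coding genes had Jmjd2a within 1000 bp of a start in 32.2%, Jmjd2c in 45% and both in 29% of 17492 genes.

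**Figure D3:**
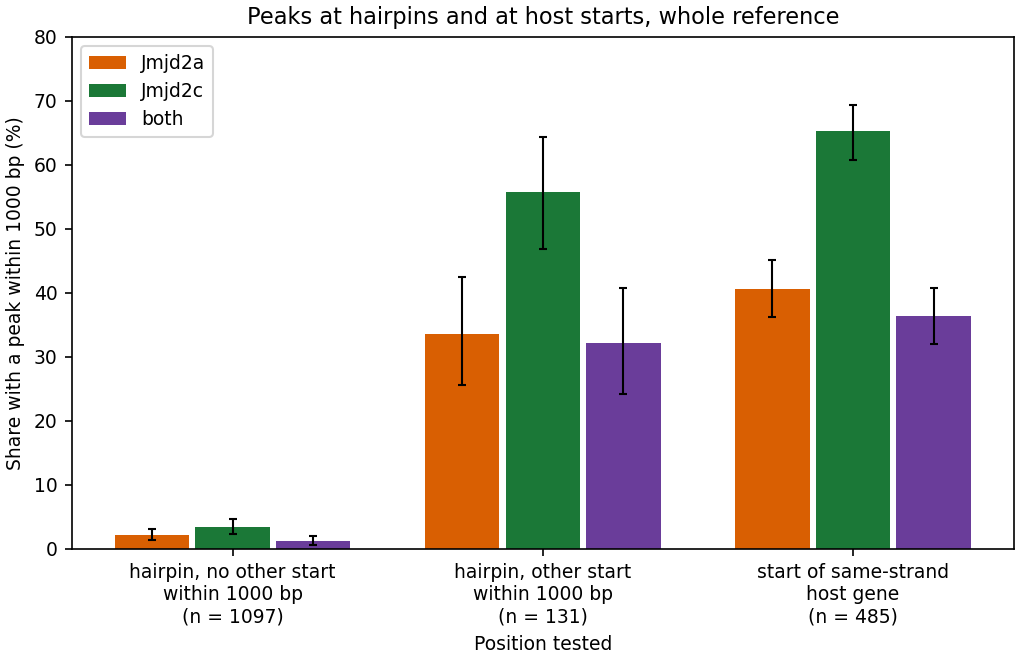
Share of positions with a Jmjd2a peak (orange), a Jmjd2c peak (green) or both (purple) within 1000 bp, for microRNA hairpins of the whole reference without and with another gene's start within 1000 bp, and for the starts of same-strand host genes, each host counted once; bars start at 0 and lines are exact 95% binomial intervals. Hairpins on their own stay below 4% for each protein, whereas those at another start reach 33.6% and 55.7% and host starts 40.6% and 65.2% for Jmjd2a and Jmjd2c.

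Mir320 is an example with both proteins over the hairpin start. Its hairpin, at chr14:70443510-70443591 on the plus strand, lies 39 bp from the start of Polr3d on the other strand, which encodes an RNA polymerase III subunit. The Jmjd2a peak ran from 1058 bp upstream to 766 bp downstream of the hairpin start, and the Jmjd2c peak from 1083 bp upstream to 666 bp downstream. It was also the widest nearest Jmjd2a peak of the 51 genes, at 1825 bp. Mir423, inside Nsrp1 and 265 bp from its start, had a Jmjd2a peak of 1017 bp and a Jmjd2c peak of 1448 bp, both covering the hairpin start. Mir191 and Mir425 lie in Dalrd3 and shared 1 Jmjd2c peak of 2555 bp and 1 Jmjd2a peak of 482 bp. The Jmjd2a peak covered the start of Mir425 and began 251 bp downstream of that of Mir191. In all, the 60 members near Jmjd2a lay at 57 distinct peaks, and the 87 placed members near Jmjd2c at 83.

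Mir148a stood out by the number of peaks that named it. Its microRNA is abundant in many differentiated cells and belongs to the miR-148 family, which is known to repress the DNA methyltransferase Dnmt1. The hairpin lies at chr6:51269812-51269910 on the minus strand, and the nearest other start was 21373 bp away. A Jmjd2a peak of 1502 bp and a Jmjd2c peak of 1879 bp both covered the hairpin start and reached 1118 bp and 1717 bp upstream of it. Another 4 Jmjd2a peaks and 5 Jmjd2c peaks named Mir148a, giving 5 and 6 in all, the highest numbers of any member. One of these Jmjd2a peaks began 1230 bp from the start, and the others lay 91604, 99531 and 140384 bp away on the downstream side. The farther Jmjd2c peaks lay between 61414 and 99549 bp away on the same side, and the Jmjd2a peaks at 91604 and 99531 bp overlapped a Jmjd2c peak. Mir152, the other member with this seed, is an intronic microRNA of Copz2. A Jmjd2c peak of 721 bp covered its hairpin start, 517 bp from the start of Copz2, and the nearest Jmjd2a peak was 20552 bp away.

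Mir193a and Mir193b, which restrain growth and are known to target Kit, had both proteins on the upstream side. At Mir193a (chr11:79711969-79712034, plus strand) a Jmjd2a peak of 1200 bp ran from 1042 bp upstream to 157 bp downstream, and a Jmjd2c peak of 682 bp ended 293 bp upstream. At Mir193b (chr16:13449523-13449601, plus strand) a Jmjd2a peak of 300 bp ended 872 bp upstream and a Jmjd2c peak of 1200 bp ended 497 bp upstream. The nearest other start was 7399 bp from Mir193a. For Mir193b it was that of Gm32817, a transcript on the same strand that contains the hairpin and begins 1571 bp upstream of it. The Jmjd2c peak covered this start and the Jmjd2a peak lay 400 bp from it. The RefSeq window from 250 bases before to 50 after the Gm32817 start, chr16:13447702-13448001 on the plus strand of GRCm38.p6, is shown because the Jmjd2c peak overlaps it; the capitals mark its 26 CG dinucleotides.
Gm32817: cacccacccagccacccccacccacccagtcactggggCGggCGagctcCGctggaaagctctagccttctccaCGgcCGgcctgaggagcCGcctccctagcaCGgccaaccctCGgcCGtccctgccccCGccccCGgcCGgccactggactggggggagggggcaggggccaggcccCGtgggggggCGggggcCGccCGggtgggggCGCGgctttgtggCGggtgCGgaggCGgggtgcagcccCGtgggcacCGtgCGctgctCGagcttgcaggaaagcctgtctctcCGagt

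Mir203, Mir760, Mir8120 and Mir1904 were the other genes with both proteins whose nearest other start was more than 5000 bp away. Mir203 (chr12:112130880-112130955), a microRNA of skin differentiation that overlaps a further RefSeq microRNA gene, Gm51289, had a Jmjd2a peak of 537 bp inside a Jmjd2c peak of 957 bp, and both covered the hairpin start and ended within 53 bp downstream of it. At Mir760 a Jmjd2a peak of 794 bp and a Jmjd2c peak of 1317 bp covered the start. At Mir8120 and Mir1904 the Jmjd2c peak covered the start and the Jmjd2a peak ended 417 and 133 bp upstream. Mir425, which shares its peaks with the nearby Mir191, and Mir686, Mir1901, Mir7093 and Mir7647 had their nearest other start, microRNA genes aside, between 1061 and 1469 bp away.

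Of the 9 Jmjd2a-only genes, 8 had no other start within 1000 bp, though Mir132 and Mir212 among them lie close to each other. Mir132 and Mir212, microRNAs of neurons and of blood stem cells, share a locus on chromosome 11 upstream of Hic1, a growth-restraining transcription factor gene whose start lies 3133 bp from Mir212. One Jmjd2a peak of 1401 bp covered both hairpin starts. It ran from 836 bp upstream to 564 bp downstream of Mir212, and the nearest Jmjd2c peak was 4625 bp from Mir132. The other Jmjd2a-only genes were Mir1199 (peak of 1185 bp), Mir935 (1032 bp), Mir5103 (600 bp), Mir6546 (494 bp over the start and 872 bp at 20913 bp), Mir1895 (525 bp), Mir700 (480 bp) and Mir6905 (364 bp). The peak covered the start in 7 of the 9 and lay 657 bp from Mir1895 and 765 bp from Mir6905. Their nearest Jmjd2c peaks were between 4625 and 695382 bp away.

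Among the 37 Jmjd2c-only genes, the widest peaks were at Mir7653 (3559 bp), Mir5100 (3288 bp), Mir7655 (2801 bp), Mir17 (2764 bp), Mir207 (2425 bp), Mir688 (2420 bp), Mir9769 (2334 bp), Mir1945 (2149 bp), Mirlet7i (2128 bp) and Mir7654 (2040 bp). Of these 10 peaks, those at Mir5100 and Mir17 overlapped a Jmjd2a peak, which lay 1387 and 1116 bp from the hairpin start. Mir7655 lies inside Mllt10, known as a fusion partner of MLL, 2118 bp from its nearest other start. Mirlet7i, a growth-restraining member of the let-7 family at chr10:122985640-122985724, lay in the middle of its peak, which reached 1050 bp upstream and 1077 bp downstream. Its nearest other start was 66629 bp away and its nearest Jmjd2a peak 90388 bp away.

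Mir196b (chr6:52230081-52230165, minus strand) lies in the Hoxa cluster, which MLL fusions are known to activate together with this microRNA. A Jmjd2c peak of 1321 bp covered its start, from 1036 bp upstream to 284 bp downstream, and the nearest Jmjd2a peak was 30037 bp away. Mir22hg, the host transcript of the maturation-associated miR-22, had a Jmjd2c peak of 728 bp that began 285 bp downstream of its start; Jmjd2a came no closer than 6738 bp.

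Mir17 opens the miR-17 to miR-92 cluster, a growth-promoting group of 6 hairpins on chromosome 14 that is known as a Myc target. A single Jmjd2c peak of 2764 bp lay upstream of the cluster, from 3669 to 906 bp before the Mir17 hairpin start. It contained 3 separate Jmjd2a peaks of 704, 488 and 429 bp, which ended 2741, 1745 and 1116 bp before the hairpin. No peak covered any of the 6 hairpins. Mir17 counted as Jmjd2c only because its nearest Jmjd2a peak lay 116 bp outside the limit, although both proteins occupied the same upstream region.

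**Figure D4:**
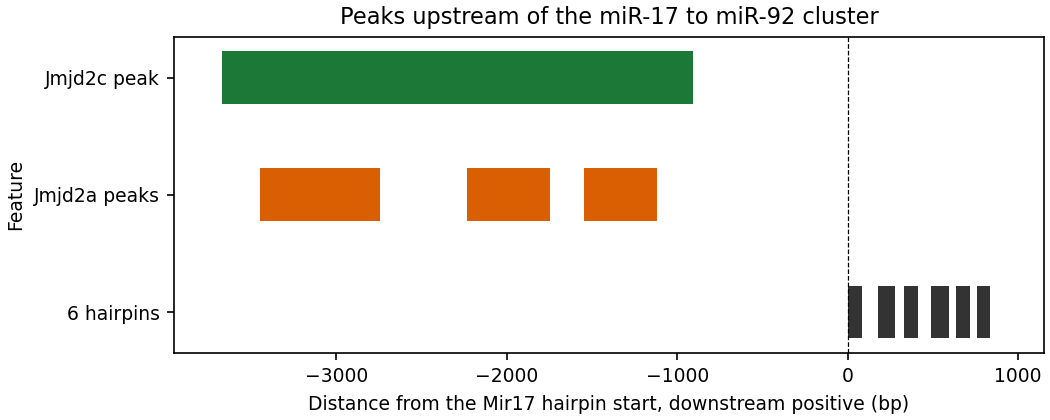
Jmjd2c peak (green), Jmjd2a peaks (orange) and the 6 hairpins of the miR-17 to miR-92 cluster (black), placed by distance in bp from the Mir17 hairpin start (dashed line), downstream positive. The Jmjd2c bar spans all 3 Jmjd2a bars and ends 906 bp before the first hairpin.

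Few members lay close to the limit of 1000 bp when the nearest naming peak of either protein was taken. By the distance of the peaks that named them, just inside it were Mir1949 (616 bp), Mir1895 (657 bp), Mir8119 (660 bp), Mir6905 (765 bp) and Mir17 (906 bp), and just outside Mir7657 (1122 bp), Mir804 (1200 bp), Mir467f (1375 bp), Mir130a (2182 bp) and Mir3547 (2239 bp). Mir7647, which no peak named and which entered through the authors' deposited table, had its nearest peaks at 807 bp (Jmjd2a) and 852 bp (Jmjd2c). Another 3 members counted as beyond, Mir26b, Mir698 and Mir6953, had a Jmjd2c peak 957, 930 and 690 bp away that named another gene. The split between the proteins can also turn on the limit. Mir8119, counted as Jmjd2c only, was named by a Jmjd2a peak at 1235 bp, and Mir193b, counted with both proteins, by a Jmjd2a peak at 872 bp.

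Of the 94 members beyond 1000 bp, 43 were named by Jmjd2a peaks only, 28 by Jmjd2c peaks only and 23 by both. In 21 of these 23 a peak of each list overlapped the other. The peaks beyond 1000 bp that named a member lay at a median of 20913 bp for Jmjd2a (85 peaks) and 21570 bp for Jmjd2c (67 peaks). No gene feature was listed under 48 of the 85 and 44 of the 67, and an intron under 28 and 21. Where the nearest peak named the gene, it lay upstream of the hairpin in 30 of 53 members for Jmjd2a and in 23 of 37 for Jmjd2c. Upstream and downstream peaks were thus both common.

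Of the distant members with 1 region shared by the proteins, 6 are given here because they belong to the lists of microRNAs of known function described below. Mir146, which restrains inflammatory signalling through Traf6 and Irak1, had a Jmjd2a peak 10416 bp and a Jmjd2c peak 10516 bp upstream, 962 and 781 bp wide. Mir181c, of a family active in lymphoid and myeloid progenitors, had both 4316 and 4367 bp upstream. At Mir30a the peaks lay 15118 and 14893 bp upstream and were 1525 and 1785 bp wide. Those of Mir30d lay 20938 and 20671 bp upstream (650 and 2030 bp), and those of Mirlet7a-1 6780 and 7146 bp upstream (684 and 1184 bp). Mir200b, an epithelial microRNA, had peaks at 21502 and 21570 bp. In each of these 6 genes the distances of the 2 proteins differed by at most 366 bp. The genes were grouped here because their peaks overlap, so a small difference follows from that choice.

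Other distant members were named by 1 protein. Mir155, a growth-promoting microRNA of activated blood cells, was named by a Jmjd2c peak of 1544 bp, 10277 bp upstream. Jmjd2c peaks also named Mir15a at 15263 bp (2047 bp wide), Mir23a at 9574 bp (1740 bp), Mir34a at 18603 bp (2249 bp), Mir29b-1 at 69593 bp, Mir181a-2 at 28134 bp, Mir222 at 89944 bp and Mir26b at 3324 bp. Jmjd2a peaks named Mir130a at 2182 bp, Mir30c-2 at 33176 bp, Mir181a-1 at 159812 bp and Mir499, a muscle microRNA, at 18672 bp. Such a name says only that no other annotated start was nearer, so a peak 159812 bp away carries little information on the microRNA.

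The widest distant Jmjd2a peaks named Mir6417 (1588 bp), Mir30a (1525 bp), Mir7224 (1238 bp), Mir6944 (1174 bp), Mir31 (1108 bp), Mir6540 (1081 bp), Mir3473c (1025 bp), Mir181c (1008 bp), Mir5104 (971 bp) and Mir146 (962 bp). All except those of Mir31 and Mir5104 overlapped a Jmjd2c peak. The widest distant Jmjd2c peaks named Mir6417 (3645 bp), Mir5106 (2471 bp), Mir6921 (2411 bp), Mir34a (2249 bp), Mir15a (2047 bp), Mir30d (2030 bp), Mir6944 (1792 bp), Mir30a (1785 bp), Mir7224 (1747 bp) and Mir23a (1740 bp). Those of Mir6921, Mir34a, Mir15a and Mir23a did not overlap a Jmjd2a peak. Mir6417, at 19589 bp for Jmjd2a and 19588 bp for Jmjd2c, headed both orders. At Mir5106, 1 Jmjd2c peak 11226 bp away overlapped 3 Jmjd2a peaks, the arrangement also seen upstream of Mir17.

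As a whole, 131 Jmjd2a and 147 Jmjd2c peaks named a microRNA gene. Within 1000 bp of the start they named lay 35.1% of these Jmjd2a peaks (exact 95% interval 27 to 43.9%) and 54.4% of the Jmjd2c peaks (46 to 62.6%), against 77% and 86% of all peaks. Of the Jmjd2a peaks 54.2% overlapped a Jmjd2c peak (45.3 to 62.9%), against 74.1% of all Jmjd2a peaks. Of the Jmjd2c peaks 49% overlapped a Jmjd2a peak (40.7 to 57.3%), against 58.6% of all Jmjd2c peaks. At matched distance these gaps were smaller within 1000 bp, and farther out their direction varied. Within 1000 bp, 82.6% of 46 Jmjd2a peaks were shared against 86.9% of the peaks naming other genes, and 60% of 80 Jmjd2c peaks against 61.6%. Between 1000 and 10000 bp, 38.7% of 31 Jmjd2a peaks were shared (21.8 to 57.8%) against 38.2%. For Jmjd2c it was 43.8% of 16 peaks (19.8 to 70.1%) against 39.5%. Beyond 10000 bp, 38.9% of 54 Jmjd2a peaks were shared (25.9 to 53.1%) against 27.7%, and 33.3% of 51 Jmjd2c peaks (20.8 to 47.9%) against 41%.

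Widths differed little from those of other peaks for Jmjd2a near starts. Jmjd2a peaks naming a microRNA gene had a median width of 625 bp (quartiles 427 and 910.5 bp) against 708 bp for those naming other genes. Within 1000 bp of the start the medians were 768 and 761 bp. Jmjd2c peaks had a median width of 1302 bp in both sets, but within 1000 bp of 1475.5 bp against 1364 bp.

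The counts were also set against lists of microRNAs of known function. Of 45 progenitor and leukaemia-associated genes, 8 were named by a peak, 2 of them with Jmjd2c within 1000 bp (Mir17 and Mir196b), none with Jmjd2a that near and 6 from beyond. Mir10a, a Hoxb cluster microRNA of this list, was not named but had a Jmjd2c peak 585 bp away, which makes 3 of the 43 placed genes. Of 50 myeloid maturation and growth-restraining genes, 16 were named: 2 with both proteins near, 2 with Jmjd2a only, 2 with Jmjd2c only and 10 from beyond. Of 53 genes of other tissues 3 were named, and only Mir203 had a peak within 1000 bp. None of the 3 erythroid genes was named. Mir223 and Mir142, the classical myeloid and pan-haematopoietic microRNAs, were not named by any peak. The shares near a hairpin, 4 of 49 placed genes for each protein in the maturation list, can be read against 5.46% and 8.96% of all microRNA genes. For the counts of named genes, the scale is 191 members beside 1228 microRNA genes in RefSeq. Mir132 and Mir212, the Jmjd2a-only genes of the maturation list, lie under 1 peak.

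The starts of host genes gave a different picture from the hairpins. A host start on the hairpin's own strand was found for 556 microRNA genes in 485 distinct hosts. Jmjd2a lay within 1000 bp of the host start for 37.6% of these microRNA genes, Jmjd2c for 61% and both for 33.6%. With each host counted once the shares were 40.6% (36.2 to 45.1%), 65.2% (60.7 to 69.4%) and 36.3% (32 to 40.7%), against 32.2%, 45% and 29% of protein-coding genes. A host with several starts was counted as occupied if any of them was. For the 502 microRNA genes more than 1000 bp downstream of their host starts the shares were 37.6, 61.4 and 33.7%. For 309 of these 502 a host start was occupied while no peak lay within 1000 bp of the hairpin, and 23 of the 309 were named by a peak.

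Some listed microRNAs with an occupied host start are given here, picked after their values were seen. Mir25, Mir93 and Mir106b, which share seeds with microRNAs of the miR-17 to miR-92 cluster, lie inside the helicase gene Mcm7, whose start had a Jmjd2a peak at 1 bp and a Jmjd2c peak over it. The start of Egfl7, host of the stem cell microRNA Mir126a, had Jmjd2a at 16 bp and Jmjd2c over it. At Nfyc, host of Mir30e, and at Ctdsp2, host of Mir26a-2, both proteins covered the start. Jmjd2c alone covered the starts of Vmp1, host of the growth-promoting Mir21a, and of Wdr82, host of Mirlet7g. None of these hairpins had a peak within 1000 bp, and none is a member. In the maturation list, 10 of 22 genes with a host start had Jmjd2a there and 16 had Jmjd2c. In the progenitor list it was 4 and 5 of 13, and in the list of other tissues 5 and 6 of 27. These are counts of hairpin genes, not of host starts. Mir25, Mir93 and Mir106b each count in the progenitor list although they share the Mcm7 start, so such genes are not separate observations. Over all 556 microRNA genes with a host start the shares were 37.6% and 61%. A listed host without a peak near its start is A330023F24Rik, of Mir29b-2 and Mir29c. Its start lay 40278 bp from Jmjd2a and 39998 bp from Jmjd2c.

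Of the 94 distant members, 39 had such a host start. Jmjd2c lay within 1000 bp of it in 23 and Jmjd2a in 15, both in 11 and neither in 12. For Mir15a, the host Dleu2, a noncoding transcript whose human locus is lost in chronic lymphocytic leukaemia, had Jmjd2c over its start and the nearest Jmjd2a peak 4645 bp away. Mir26b lies in Ctdsp1, whose start was covered by Jmjd2c with Jmjd2a 4408 bp away. Mir7224 lies in B3galt1, and both proteins covered a start of that gene. Mir155 differed, since the start of Mir155hg was 9160 bp from the nearest Jmjd2c peak and 21679 bp from the nearest Jmjd2a peak.

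Occupied host starts were rich in CG dinucleotides. In windows from 250 bases before to 50 after a start, the host windows with both proteins had a median of 25 (212 windows), those with neither 8 (271), and all windows of RefSeq 7 (32817). Over all genes the windows with both proteins had a median of 24 and those with neither 4, so the hosts followed the general pattern. The motif searched was the dinucleotide CG, which reads the same on both strands and occurs at least once in 94.6% of all windows. The windows of Dleu2, with only Jmjd2c at its start, and of Mir155hg, with no peak within 1000 bp, hold 29 and 0, in capitals. They were picked as examples, and Mir155hg is an extreme. Of the host windows with neither protein, 96.3% held at least 1 CG, with quartiles of 4 and 19. Host windows with Jmjd2c only had a median of 22 (173 windows). Dleu2 is at chr14:61682324-61682623 on the minus strand and Mir155hg at chr16:84712773-84713072 on the plus strand.
Dleu2: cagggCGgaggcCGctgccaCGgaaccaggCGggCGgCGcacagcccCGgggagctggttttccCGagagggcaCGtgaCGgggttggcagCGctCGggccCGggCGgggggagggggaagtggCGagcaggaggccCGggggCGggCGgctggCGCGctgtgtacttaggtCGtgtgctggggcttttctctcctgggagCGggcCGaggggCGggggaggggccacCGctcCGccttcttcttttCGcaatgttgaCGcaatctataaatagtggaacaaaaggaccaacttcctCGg
Mir155hg: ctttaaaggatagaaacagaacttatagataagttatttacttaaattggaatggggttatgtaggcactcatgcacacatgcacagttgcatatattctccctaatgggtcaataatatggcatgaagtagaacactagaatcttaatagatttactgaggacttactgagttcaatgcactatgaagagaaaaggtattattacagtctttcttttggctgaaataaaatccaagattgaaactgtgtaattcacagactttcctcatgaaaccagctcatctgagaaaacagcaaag

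The hairpins of near members were also rich in G and C. The median G and C share was 61.55% for genes with both proteins (44 hairpins), 64.7% for Jmjd2a only (8), 63.35% for Jmjd2c only (32), 51.2% beyond 1000 bp (72) and 51.7% for all 1005 hairpins of the reference table. Over the reference, hairpins with another start within 1000 bp had a median of 60.6% and those without one 50.8%. The Jmjd2a-only hairpins had the highest median, but they number only 8, and Mir132 and Mir212 among them lie under 1 peak. Another start was that near in 1 of the 9 Jmjd2a-only genes. The part of base composition in the occupancy was not tested. Lately named microRNAs, with a number of 1000 or more, made up 35 of the 51 genes with both proteins, 5 of 9 with Jmjd2a only, 25 of 37 with Jmjd2c only and 55 of 94 beyond, against 654 of 1228 in the reference.

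**Figure D5:**
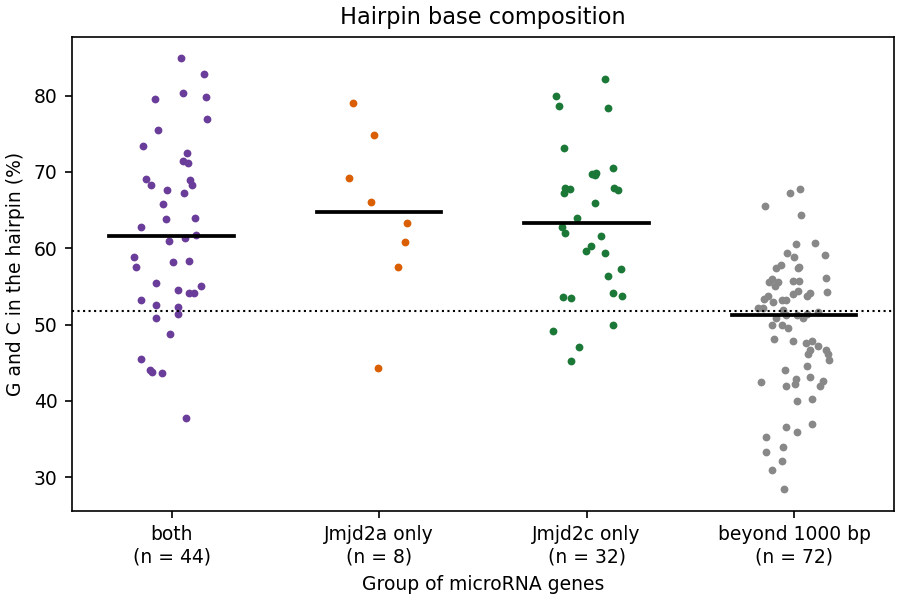
G and C share of the hairpin sequence (%) by group of microRNA genes; each point is a hairpin, solid bars are group medians, and the dotted line is the median of all 1005 hairpins (51.7%). The 3 groups near a peak have medians above 61%, and the group beyond 1000 bp lies around the dotted line.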

How the data were processed

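Chromatin immunoprecipitation libraries were aligned by the submitters; Bowtie 0.12.7, SAMtools, bedtools 2.25.0 and the build mm10 are named in the submitters' processing notes. Which caller, threshold, control and libraries lie behind each peak list is not stated in the sources used here. Per the file headers, the authors deposited peak positions with the gene start closest to each and how far it lies (bp), and a table of start-site windows bound by both proteins. Peaks too weak for the unknown threshold or depth are missed, so absence of a peak is not absence of protein.

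Positions were read as counting from 0 and are printed counting from 1. A member was near when a peak naming it lay within 1000 bp or the authors' table listed its window. Distances from every peak were also measured to RefSeq genes (GRCm38.p6): 184 members sat at the same place there and 7 did not. For these 7 the deposited start was used in place of the RefSeq one. Distances to the nearest peaks were measured from it, except for Mir466f-2, whose start could not be placed. Reference counts cover 1228 microRNA genes and 27025 others. Chromosome 18 was left out of the mature sequences and of the windows in which CG was counted. Peaks overlapping by at least 1 bp were called shared. A host start is a start, upstream on the same strand, of a gene that contains the hairpin. Shares carry exact (Clopper-Pearson) 95% intervals for counting error only, and no test was made. The overlap and distance steps were tested on simulated data.

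Named are all genes with both proteins near, all listed microRNAs named by a peak, the 10 with the widest peak per protein in the other groups, and the 5 nearest to each side of the limit by the peaks that named them; other genes were chosen after their values were seen. The members and lists were chosen with earlier results of these data known. Alternatives were other windows, overlaps and the wider 50% of peaks. Python 3.11.15, numpy 2.4.6, pandas 2.3.3, scipy 1.17.1 and matplotlib 3.10.9 were used.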

Additional observations from a re-analysis of the deposited data

How the results depend on the processing

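No paired analysis was possible because the tables hold no value per library. Windows of 500 and 5000 bp, hairpin genes only, and every peak measured to every reference gene moved the counts of near members little (51 to 70 for Jmjd2a, 83 to 110 for Jmjd2c and 44 to 56 for both). With only the wider 50% of each peak list, the genes near Jmjd2a numbered 33, those near Jmjd2c 63 and those near both 21, and the shares of shared peaks were 41.2% for Jmjd2a and 33.8% for Jmjd2c, since fewer peaks enter. Peaks within 1000 bp had median widths of 768 bp (Jmjd2a) and 1475.5 bp (Jmjd2c), and Jmjd2c peaks naming microRNA genes alone 957 bp. Alternatives chosen after seeing the data gave a Jmjd2c share at host starts of 65.2% with each host counted once. They put another start near 55.2% of near members at 500 bp and 80.2% at 5000 bp.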

Other observations

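Because each peak names only its nearest start, 24 RefSeq microRNA genes lay within 1000 bp of a peak without being named. Among them Mir484 had a Jmjd2c peak 344 bp away and a Jmjd2a peak 3532 bp away. Mir345 and Mir130b had Jmjd2c peaks 222 and 73 bp away, and Mir449c had a Jmjd2a peak 582 bp away. Mir130b neighbours Mir301b, a member covered by the same Jmjd2c peak. These 4 were picked from the 24 after their values were seen.

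The 7 members that the reference places elsewhere are Mir297-1, Mir3079, Mir378a, Mir466f-2, Mir467f, Mir6412 and Mir7667. The files put Mir3079 on chromosome 11 and the reference on 15, and for Mir7667 the chromosomes are 9 and 17. Their peaks cannot be assigned to a hairpin with the tables used here. They stay counted in the groups above by their deposited positions, Mir466f-2 and Mir7667 among the Jmjd2c-only genes.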
